A study of Mus musculus with 56 samples.

Results

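Fabp7, the brain fatty acid-binding protein gene (NCBI Gene 12140), was followed in the anterior hypothalamus across the day in 56 female mice on restricted feeding. It was compared with Fabp3 (NCBI Gene 14077) and Fabp5 (NCBI Gene 16592), the other family members with appreciable RNA in this tissue, so that 3 of 17564 listed genes were described. Fabp7 was chosen from these same data because it was rhythmic in both feeding regimens and lower in the day-fed one. Its rhythm and its difference between regimens are therefore given as measurements without a test, whereas Fabp3 and Fabp5 were tested. Both were taken as relatives and not for their own rhythm or regimen difference, though with earlier results of these data known.

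All mice were C57BL/6J females of 9 weeks kept under 12 h of light and 12 h of darkness, with 7 days of free access to chow before the restriction. In day time-restricted feeding (DRF), food was given in the light period, from zeitgeber time (ZT) 0 to ZT12, for 7 days. In night time-restricted feeding (NRF), food was given in the dark period for the same number of days. From ZT0 to ZT24, 4 mice per regimen were killed every 4 h, which makes 14 groups at 7 time points, and the ZT24 mice were other animals than the ZT0 mice. There was no group with food at all hours, so every value describes 1 restricted regimen against the other, and both regimens had passed through the same acclimation. The tissue was a dissected block holding many cell types, and in such bulk RNA fewer cells of a type and less RNA per cell cannot be told apart.

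Fatty acid-binding proteins are small cytosolic carriers that hold long-chain fatty acids and pass them between membranes, enzymes and nuclear receptors. FABP7 is the form of radial glia and astrocytes, with a preference for polyunsaturated fatty acids such as docosahexaenoic acid, and its mRNA has been known to cycle over the day in astrocytes. FABP3 is the heart form and in the brain belongs mainly to neurons, while FABP5, the epidermal form, occurs in neurons, glia and endothelium.

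Fabp7 lies at chr10:57784923-57788450, Fabp3 at chr4:130308738-130315463 and Fabp5 at chr3:10012585-10016610 (RefSeq, GRCm38.p6). The 250 bases before the annotated start of Fabp7 and Fabp3 are shown because the members differ in their daily course, and 3 short motifs that clock and lipid-sensing factors are known to bind were looked up in them. Matches are in capitals, and both sequences are from RefSeq (GRCm38.p6), plus strand.
Fabp7, chr10:57784673-57784922: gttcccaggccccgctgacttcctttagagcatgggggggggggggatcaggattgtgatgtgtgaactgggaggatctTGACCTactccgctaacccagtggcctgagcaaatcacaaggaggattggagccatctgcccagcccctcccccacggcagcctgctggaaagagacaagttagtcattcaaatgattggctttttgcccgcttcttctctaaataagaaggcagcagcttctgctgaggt
Fabp3, chr4:130308488-130308737: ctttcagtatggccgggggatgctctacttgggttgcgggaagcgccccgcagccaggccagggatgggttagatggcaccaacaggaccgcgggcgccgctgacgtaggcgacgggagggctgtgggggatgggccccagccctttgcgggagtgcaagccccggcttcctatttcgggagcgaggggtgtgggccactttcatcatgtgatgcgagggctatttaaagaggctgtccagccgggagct
The motifs were AGGTCA, the core site shared by REV-ERB, ROR and PPAR receptors, CACGTG, the E-box of the CLOCK:BMAL1 dimer, and TTATGTAA, the D-box of DBP, TEF and HLF, each read on both strands. The Fabp7 window held 1 match, to AGGTCA on the minus strand, which begins 171 bases before the start and is written in capitals as its complement. The Fabp3 window held 0 matches. AGGTCA occurs in 14% of the 32851 RefSeq mouse promoters of the same length, CACGTG in 6.02% and TTATGTAA in 0.819%. These letters are thus only a description of the windows, and whether any factor binds there was not tested.

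Levels are given as CPM, the reads of a gene for every 1000000 reads of the library after normalization, as recovered from the deposited values. Between 325 and 1619 reads per mouse lay behind the Fabp7 values, 625 to 982 behind Fabp3 and 1884 to 3193 behind Fabp5. The normalized library size was 29591262 to 34493346 reads per mouse. Fabp3 reads came out as fractions, which RSEM gives where reads also match another place such as a near-identical copy, so its level is less certain than that of Fabp7 and Fabp5. DRF ZT16 replicates 3 and 4 stood apart in the relation between expression and GC content, with a correlation across transcripts of 0.57 and 0.67 against -0.36 to 0.38 in the other 54 libraries. The part of this in any result was not tested, and values without these libraries are given where they differ.

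In NRF mice, Fabp7 was highest around the start of the light period and lowest 4 h after lights off. At ZT0 the 4 NRF mice had 49.6, 47.1, 38.7 and 44.0 CPM. At ZT4 they had 49.3, 45.8, 46.3 and 52.0 CPM, and at ZT8 36.9, 35.1, 27.4 and 41.9 CPM. The early-light mice were thus all above 38 CPM, and the decline had begun by ZT8.
At ZT12 the NRF values were 22.1, 21.3, 28.6 and 18.3 CPM, and at ZT16 they were 11.3, 13.9, 11.1 and 12.6 CPM. No ZT16 mouse overlapped with any NRF mouse of another time point. At ZT20 the level had risen again to 19.2, 22.0, 18.8 and 22.0 CPM, and at ZT24 to 37.8, 28, 40.5 and 43.9 CPM. The mean at ZT4 (48.4 ± 2.88 CPM, SD, n = 4) was 3.97 times that at ZT16 (12.2 ± 1.30 CPM, SD, n = 4).

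In DRF mice the course had the same outline and a lower crest. The DRF values were 16.9, 24.6, 20.3 and 25.4 CPM at ZT0, 19.8, 32.9, 23.5 and 32.1 CPM at ZT4, and 24.2, 28.2, 18.9 and 20.5 CPM at ZT8. Mice of these light-phase groups overlapped with one another.
At ZT12 the DRF mice had 15.1, 18.1, 17.4 and 17.4 CPM, at ZT16 10.6, 15, 13.1 and 10.9 CPM, and at ZT20 14.4, 17.2, 14.3 and 15.4 CPM. At ZT24 they were at 27.1, 17.3, 30.2 and 21.6 CPM, the widest spread of any DRF group on the log2 scale together with ZT4. The mean at ZT4 (27.1 ± 6.45 CPM, SD, n = 4) was 2.19 times that at ZT16 (12.4 ± 2.05 CPM, SD, n = 4). The DRF ZT16 replicates that stood apart in GC content, at 13.1 and 10.9 CPM, lay between the other 2 mice of the group.

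**Figure D1:**
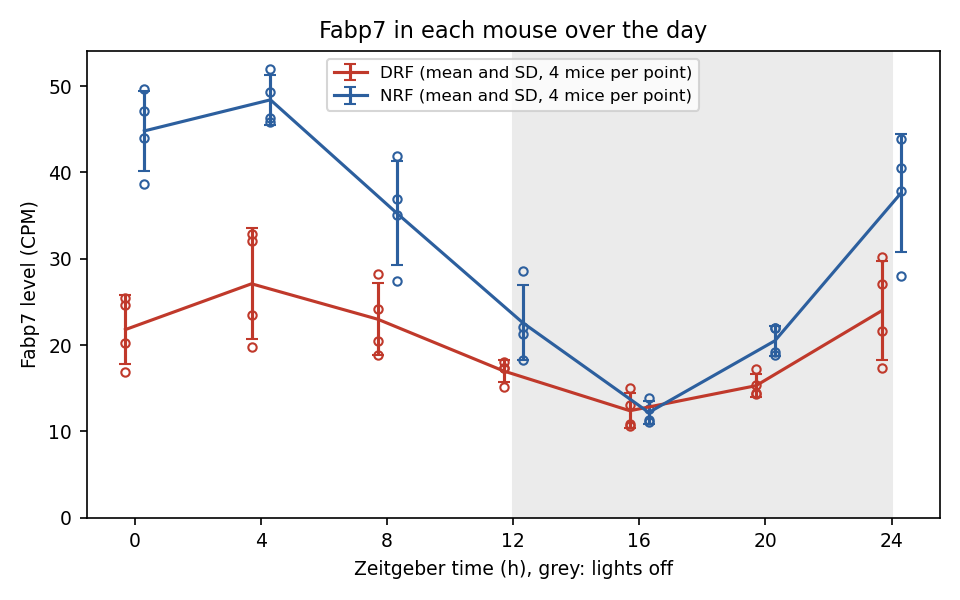
Fabp7 level (CPM, y axis) against zeitgeber time (h, x axis) in 28 DRF (red) and 28 NRF (blue) mice. Open circles are single mice, lines join the means, bars are the SD of 4 mice and grey marks the dark period. Both regimens meet at ZT16 (12.4 and 12.2 CPM) and lie farthest apart at ZT0 (21.8 and 44.8 CPM).

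The 14 groups formed a graded series rather than separate classes. In descending order of the mean they were NRF ZT4, NRF ZT0, NRF ZT24, NRF ZT8, DRF ZT4, DRF ZT24, DRF ZT8, NRF ZT12, DRF ZT0, NRF ZT20, DRF ZT12, DRF ZT20, DRF ZT16 and NRF ZT16. Of the 13 steps between neighbours, 5 were larger than the pooled SD of the neighbouring groups on the log2(CPM + 1) scale. These lay below NRF ZT0, NRF ZT8, NRF ZT20, DRF ZT12 and DRF ZT20. The 8 others were within that spread, which includes the whole stretch from DRF ZT4 (27.1 CPM) to NRF ZT20 (20.5 CPM). Only 1 pair of neighbours, NRF ZT20 and DRF ZT12, had mice that did not overlap. The highest DRF group thus stood below the 4 NRF groups from ZT24 to ZT8, with a step of 0.39 against a pooled SD of 0.30.

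The difference between regimens changed with the hour. On the log2(CPM + 1) scale, Fabp7 in DRF minus NRF was -1.02 at ZT0, -0.84 at ZT4, -0.60 at ZT8, -0.38 at ZT12, 0.01 at ZT16, -0.40 at ZT20 and -0.63 at ZT24, each with an SE of 0.15. The mean CPM in DRF was lower by 51.4% at ZT0, where 21.8 ± 3.95 stood against 44.8 ± 4.66 CPM (SD, n = 4). At ZT16 the groups overlapped fully. The mice of both regimens did not overlap at ZT0, ZT4, ZT12 and ZT20 and did overlap at ZT8, ZT16 and ZT24. The share of all transcripts without overlap is not given here, so this is a description only. For all transcripts, limma called a difference in 4.55% at ZT0, 3.82% at ZT4, 0.168% at ZT8, 1.5% at ZT12, 20.1% at ZT16, 1.14% at ZT20 and 0.336% at ZT24. ZT16, where most transcripts were called, was thus the hour at which Fabp7 showed the smallest difference. Without the DRF ZT16 replicates 3 and 4 the ZT16 share was 0.187%, and the Fabp7 difference was 0.05. Averaged over the 7 time points, Fabp7 was lower in DRF by 0.55 (SE 0.06). Of 16081 transcripts tested, 10 had a larger fall. Because Fabp7 was selected for being lower in DRF, nothing is read from the 4.86% of transcripts that were called lower in DRF.

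A 24-h cosine described the course of Fabp7 by a mid-level, an amplitude (the distance from mid-level to peak) and a peak time. In NRF the amplitude was 0.91 (SE 0.07) on the log2 scale, with the peak at ZT3.80 (SE 0.26 h), and the curve took up 88.7% of the variance among the 28 mice. In DRF the amplitude was 0.51 (SE 0.07), with the peak at ZT4.27 (SE 0.462 h), and the curve took up 70.2%. The fitted peak stood 3.53-fold above the trough in NRF and 2.03-fold in DRF. The DRF amplitude was 56.0% of the NRF amplitude, while the peak was later by 0.469 h with an SE of 0.531 h, which is within its error. Food was given at opposite times of day, and the Fabp7 peak stayed within the first hours of light in both regimens. Among 16081 transcripts, 14 had a larger amplitude in NRF and 42 in DRF, where the medians over all transcripts were 0.07 and 0.06. Rhythm in both regimens was called for 0.443% of transcripts, a share from which nothing is read for a gene chosen on that call. When ZT16 was left out, Fabp7 no longer met the rhythm call in DRF, although its amplitude was 0.46 (SE 0.09). By Lomb-Scargle alone, which called 0 transcripts in DRF (567 at an unadjusted p under 0.05) and 4 in NRF, it met the call in neither regimen. The repeated clock time gave a check on the level: ZT24 minus ZT0 was 0.12 (SE 0.21) in DRF and -0.26 (SE 0.16) in NRF on the log2 scale.

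Fabp3, the heart-type carrier, moved little. Its group means ran from 22.8 to 25.1 CPM in DRF and from 21.2 to 27.5 CPM in NRF. The highest NRF mean, at ZT4 (27.5 ± 1.40 CPM, SD, n = 4), was 1.30 times the lowest, at ZT20 (21.2 ± 0.512 CPM, SD, n = 4). The ZT20 mice, at 21.8, 20.6, 21.3 and 21.2 CPM, lay below all NRF mice of ZT0, ZT4, ZT8 and ZT12. Fabp3 passed the rhythm test in NRF (adjusted p = 0.00354, JTK_CYCLE and Lomb-Scargle combined), where 30.3% of all transcripts passed, and missed it in DRF (adjusted p = 1.0), where 0.677% passed. The NRF call was lost with Lomb-Scargle alone (adjusted p = 0.274).
The NRF cosine of Fabp3 had an amplitude of 0.16 (SE 0.03) on the log2 scale and a peak at ZT7.49 (SE 0.703 h). The DRF amplitude was 0.01 (SE 0.03), so that a peak time could not be placed. At the repeated clock time, ZT24 minus ZT0 was 0.02 (SE 0.05) in DRF and -0.15 (SE 0.03) in NRF. The NRF gap was near the size of the NRF amplitude. The cosine terms of Fabp3 differed between regimens (limma, adjusted p = 0.0245), as they did in 11.2% of all transcripts. This call was lost without ZT24 (adjusted p = 0.0717) and without replicate 1 (0.0949), replicate 3 (0.121) or replicate 4 (0.079), with the amplitude difference between -0.16 and -0.12 in these fits.

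The level of Fabp3 over the 7 time points differed by -0.07 (SE 0.03) on the log2 scale, which missed the threshold (limma, adjusted p = 0.108). The DRF ZT16 mice had 20.6, 22.4, 30 and 27.5 CPM, and the last 2 are the libraries that stood apart. Without them the level difference was -0.10 (limma, adjusted p = 0.00801), and the ZT4 difference of -0.20 also passed (adjusted p = 0.0392). The planned fit without ZT16 gave a level difference of -0.08 (limma, adjusted p = 0.0232) and -0.20 at ZT4 (adjusted p = 0.0354). With all libraries, no time point passed for Fabp3, and the smallest adjusted p was 0.119 at ZT4. At ZT4 and ZT8 Fabp3 was 13.5% and 14.3% lower in DRF in mean CPM (limma, adjusted p = 0.119 and 0.227). The mice of the regimens did not overlap at these hours. The share of all transcripts without overlap is not given here, so nothing is read from this.

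Fabp5, the epidermal-type carrier, had group means of 68.8 to 81.2 CPM in DRF and 69.5 to 85.6 CPM in NRF. Its highest NRF mean, at ZT4 (85.6 ± 9.54 CPM, SD, n = 4), was 1.23 times the lowest, at ZT16 (69.5 ± 2.85 CPM, SD, n = 4). Rhythm passed the threshold narrowly in NRF (adjusted p = 0.0472, JTK_CYCLE and Lomb-Scargle combined) and missed it in DRF (adjusted p = 1.0). The NRF call was lost in 9 of 11 alternative fits, including each that left out 1 replicate number (adjusted p from 0.0828 to 0.481). The NRF amplitude was 0.15 (SE 0.03) with a peak at ZT6.95 (SE 0.776 h), against 0.03 (SE 0.03) in DRF. ZT24 minus ZT0 was -0.24 (SE 0.06) in DRF and -0.13 (SE 0.06) in NRF. The DRF gap at this repeated clock time was larger in size than any Fabp5 difference between regimens in the main fit.
The cosine terms of Fabp5 did not pass the test of a difference (limma, adjusted p = 0.0702), and they passed without replicate 2 (adjusted p = 0.0472). Neither its level (-0.04, SE 0.03, limma adjusted p = 0.457) nor any time point passed in the main fit on the log2(CPM + 1) scale. The differences largest in size were -0.21 at ZT4 (limma, adjusted p = 0.141) and 0.20 at ZT16 with DRF higher (adjusted p = 0.0664). The ZT16 difference was 0.09 without the DRF ZT16 replicates 3 and 4 (adjusted p = 0.763), and it passed without replicate 1 (0.25, adjusted p = 0.0313) and on the deposited scale (adjusted p = 0.0444). Mice of both regimens overlapped at every hour.

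**Figure D2:**
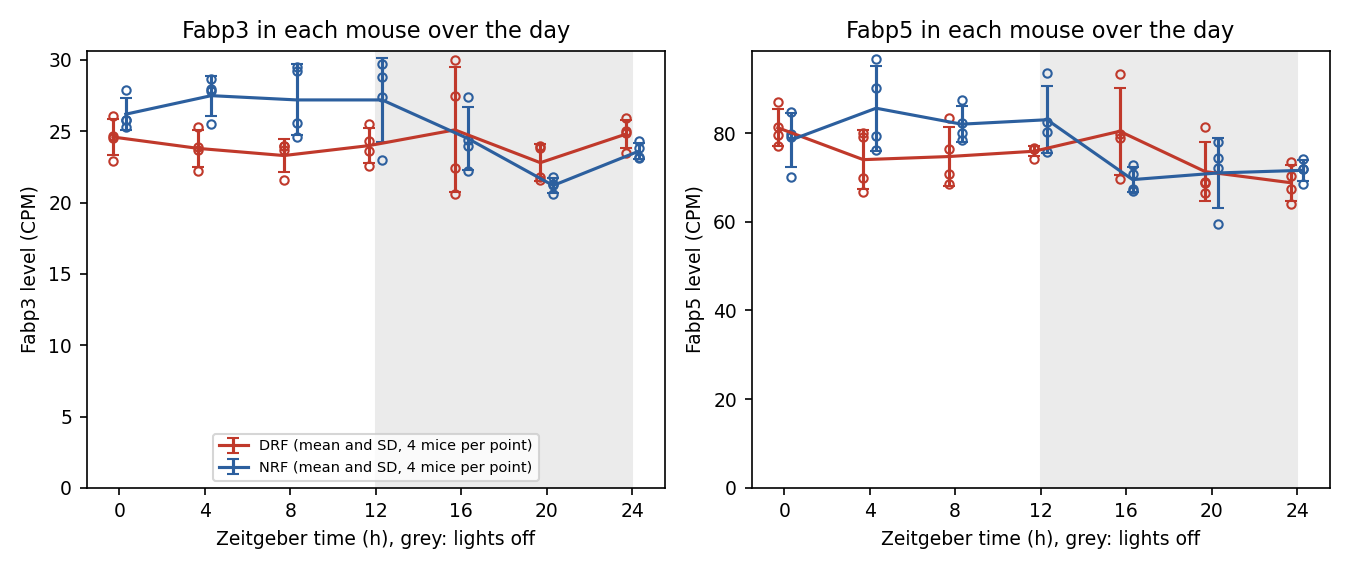
Fabp3 (left) and Fabp5 (right) levels (CPM, y axes from 0) against zeitgeber time (h) in DRF (red) and NRF (blue) mice. Circles are single mice, lines join means and bars are the SD of 4 mice. Both genes stay in a narrow band, with NRF Fabp3 at its lowest at ZT20 (21.2 CPM) and 2 DRF ZT16 mice high for Fabp3 (30 and 27.5 CPM).

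Set side by side, the level of Fabp7 varied more with the hour and the regimen than that of either relative. The choice of Fabp7 for its rhythm and its lower DRF level favoured this contrast. The largest log2 difference between regimens at a single time point was 1.02 in size for Fabp7, 0.21 for Fabp3 and 0.21 for Fabp5. Per kilobase of annotated exon sequence, the mean over the 28 NRF mice was 25.3 CPM for Fabp7, 30.8 for Fabp3 and 21.7 for Fabp5. In the 28 DRF mice it was 16.1 for Fabp7, 29.2 for Fabp3 and 21.1 for Fabp5. The lengths used were all annotated exons joined, 1250 bases for Fabp7, 823 for Fabp3 and 3567 for Fabp5. They can exceed the length of the transcript made, so no rank of the genes is drawn from this measure. By CPM without regard to length, Fabp5 was highest, at 77.3 in NRF and 75.2 in DRF. Fabp7 had 31.6 and 20.1 CPM, and Fabp3 25.3 and 24.1 CPM. In NRF the fitted peak of Fabp7 (ZT3.80) came before those of Fabp5 (ZT6.95) and Fabp3 (ZT7.49), and the latter pair lay within their errors of each other. Across the 56 mice, the correlation with Fabp7 on the log2 scale was 0.382 for Fabp3 and 0.349 for Fabp5, and within groups it was 0.283 and 0.410. These points share libraries and their normalization.

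**Figure D3:**
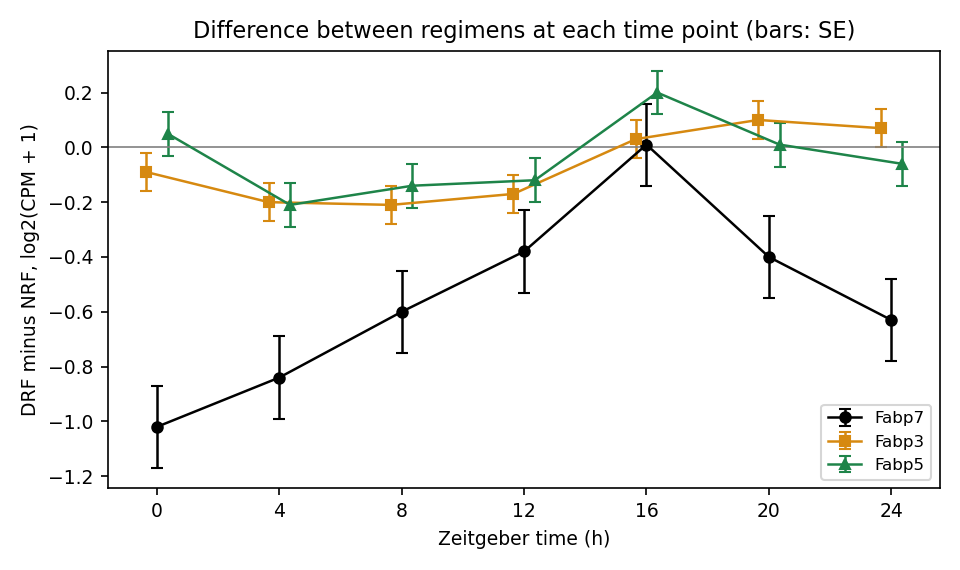
DRF minus NRF on the log2(CPM + 1) scale (y axis) at each zeitgeber time (h, x axis) for Fabp7 (black circles), Fabp3 (orange squares) and Fabp5 (green triangles). Bars are the SE of each difference. Fabp7 runs from -1.02 at ZT0 to 0.01 at ZT16, whereas Fabp3 and Fabp5 stay between -0.21 and 0.20.

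Of the 10 members of the fatty acid-binding protein family looked for, 5 were listed in the data and 3 passed the filter on low values. Fabp4, the adipocyte form, and Pmp2, the myelin form, were listed at 0.0113 and 0.0163 CPM per kilobase on average and were not tested. The other 5 (Fabp1, Fabp2, Fabp6, Fabp9 and Fabp12) were not analysed here. All 5 retinoid-binding relatives, which carry retinol or retinoic acid in a similar fold, were tested. Of these, 0 passed the level test (limma, 0 also at an unadjusted p under 0.05), near the 5.6% higher and 4.86% lower over all transcripts. In the rhythm difference test 0 passed (limma, 1 at an unadjusted p under 0.05), beside 11.2% of all transcripts. Rbp7 alone was rhythmic in NRF (JTK_CYCLE and Lomb-Scargle combined, adjusted p = 0.0369), where 30.3% of all transcripts passed. Its level was near the floor, at 0.118 CPM in DRF and 0.142 CPM in NRF, with an NRF amplitude of 0.08. In this list, 2 of the 5 genes were at 0 in some mouse. Their median level difference was 0.00, the same as over all transcripts.

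Among 15 genes of fatty acid uptake and activation, 1 was higher and 1 lower in DRF, beside 5.6% and 4.86% of all transcripts. Mfsd2a, the transporter that brings docosahexaenoic acid as lysophospholipid across the blood-brain barrier, was higher in DRF by 0.16 on the log2 scale (SE 0.04, limma adjusted p = 0.00769). Rhythm of Mfsd2a passed the combined test in DRF (adjusted p = 0.000876) as well as in NRF (adjusted p = 1.74e-05), with fitted peaks at ZT17.7 in DRF and ZT16.3 in NRF. Its crest therefore fell near the trough of Fabp7, in the early dark period. Acsl6, an acyl-CoA synthetase that prefers docosahexaenoic acid, was lower in DRF by 0.05 (SE 0.02, limma adjusted p = 0.0245).
A rhythm difference was called for 2 of these 15 genes, beside 11.2% of all transcripts, namely Acsl1, another acyl-CoA synthetase (limma, adjusted p = 0.00352), and Slc27a1, a fatty acid transport protein (adjusted p = 0.0195). Their amplitudes in DRF and NRF were near equal, at 0.07 and 0.08 for Acsl1 and 0.08 and 0.09 for Slc27a1. The fitted peaks were at ZT22.0 and ZT6.68 for Acsl1 and at ZT20.6 and ZT5.38 for Slc27a1. In the combined rhythm test Slc27a1 passed in neither regimen (adjusted p = 0.43 and 0.425) and Acsl1 only in NRF (adjusted p = 0.0499). Dbi, the acyl-CoA-binding protein, was rhythmic in NRF (adjusted p = 0.00831) with a peak at ZT5.46, and neither its level (adjusted p = 0.581) nor its rhythm (adjusted p = 0.141) passed the limma test of a difference. The median level difference of the 15 genes was -0.01, against 0.00 over all transcripts.

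Of 6 lipid-sensing nuclear receptors, 0 passed the level test (limma, 1 at an unadjusted p under 0.05), near the 5.6% higher and 4.86% lower over all transcripts. The rhythm differed for 1 of the 6, beside 11.2% of all transcripts. This was Ppara, the receptor that FABPs can supply with ligands (limma, adjusted p = 0.0144), with an amplitude of 0.09 in DRF and 0.22 in NRF and an NRF peak at ZT15. Pparg, Ppard and the RXR genes passed neither test of a difference. Among 11 Notch and glial transcription factors, which include known regulators of Fabp7 in radial glia, 1 differed in level, where 5.6% of all transcripts were higher and 4.86% lower. This was Notch2, higher in DRF by 0.12 (SE 0.03, limma adjusted p = 0.0134).
The rhythm differed for 3 of these 11, beside 11.2% of all transcripts, namely Rbpj, the DNA-binding partner of Notch (limma, adjusted p = 0.0072), Nfia (adjusted p = 0.000808) and Pou3f2 (adjusted p = 0.039). Their NRF peaks were at ZT20.0, ZT17.9 and ZT20.5. The amplitudes were 0.05, 0.08 and 0.17 in DRF and 0.15, 0.17 and 0.15 in NRF. Hes1 and Hes5, the classic Notch targets, had level differences of -0.08 (SE 0.05) and 0.00 (SE 0.07) that did not pass.

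Of 17 circadian clock genes, 5 were higher and 1 lower in DRF, and the rhythm differed for 7, each with a smaller DRF amplitude. Over all transcripts the shares were 5.6% higher, 4.86% lower and 11.2% for the rhythm. Over all transcripts 1488 of the 1800 that differed also had the smaller amplitude in DRF. The median amplitude difference was -0.08 for the clock genes and -0.02 over all transcripts. Nr1d1, which encodes the REV-ERBα repressor, had an amplitude of 0.29 (SE 0.03) in DRF and 0.48 (SE 0.04) in NRF with peaks at ZT7.54 and ZT8.72 (rhythm difference, limma adjusted p = 0.00214). Arntl, which encodes BMAL1, peaked at ZT23.1 in DRF and ZT23.6 in NRF, with amplitudes of 0.11 and 0.23 (limma, adjusted p = 0.0442). The Fabp7 peak lay between those of Arntl and Nr1d1 in both regimens. Across the 56 mice the correlation with Fabp7 was 0.363 for Arntl and 0.150 for Nr1d1, and within groups it was -0.148 and -0.126. For Nr1d2 the correlation was -0.211 over the mice and 0.043 within groups. Its fitted peaks were at ZT7.82 (SE 1.93 h) in DRF and ZT14.6 (SE 0.452 h) in NRF.

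Of 14 astrocyte markers, none was at 0 in any mouse, 3 were higher in DRF, 2 were lower and 9 did not pass, beside 5.6% higher and 4.86% lower over all transcripts. Glul (glutamine synthetase) was higher by 0.12 (SE 0.03, limma adjusted p = 0.00505), and Aqp4, the water channel of astrocyte endfeet, was lower by 0.21 (SE 0.04, adjusted p = 0.00159). Gfap, the astrocyte filament protein, differed by 0.01 (SE 0.06). The summed level of the list ran from 6590 to 7310 CPM over the DRF time points and from 6460 to 7110 CPM in NRF.
Relative to the mean log2 level of these markers, Fabp7 was lower in DRF by 0.55 over the day and by 1.05 at ZT0, while the marker mean itself differed by 0.00 over the day and 0.03 at ZT0. The marker mean averages genes that were higher and genes that were lower in DRF. Whether the amount of astrocyte RNA had a part in the Fabp7 difference was not tested. Tanycytes and ependymal cells, which line the ventricle and can also hold Fabp7, had 10 tested markers, of which 0 passed the level test (limma, 1 at an unadjusted p under 0.05), near the 5.6% higher and 4.86% lower over all transcripts. The summed level of these markers was 138 to 169 CPM in DRF and 127 to 162 CPM in NRF.

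Markers of other cell types also differed between regimens. Of 7 oligodendrocyte markers, 4 were lower in DRF and 0 higher, beside 4.86% lower and 5.6% higher over all transcripts, with a median difference of -0.14 against 0.00, and their sum averaged 6000 CPM in DRF and 6550 CPM in NRF. Of 5 markers of oligodendrocyte precursors, cells that can express Fabp7, 2 were lower and 1 higher, and the sum was 383 to 454 CPM over the DRF time points and 416 to 458 CPM in NRF. Of 6 endothelial markers 2 were lower, of 6 microglial markers 1 was lower, and of 10 neuronal markers 1 was higher and 1 lower, to be read against the same shares over all transcripts. The summed levels were 164 to 190 CPM in DRF and 173 to 199 CPM in NRF for endothelium, 171 to 198 and 178 to 192 CPM for microglia, and 6210 to 7310 and 6890 to 7230 CPM for neurons. None of these markers was at 0 in any mouse. The part of these shifts in the Fabp7 difference was not tested.

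**Figure D4:**
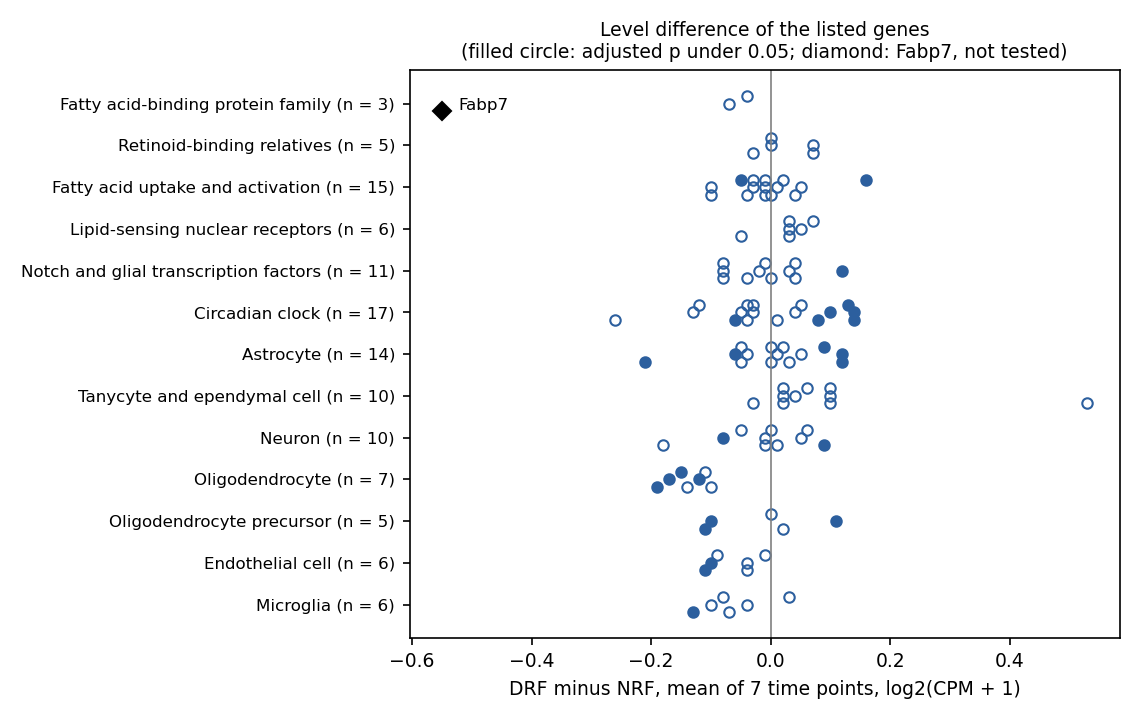
Level difference, DRF minus NRF averaged over 7 time points on the log2(CPM + 1) scale (x axis), for each tested gene of the 13 lists (rows, with the number of tested genes). Filled circles passed limma at an adjusted p under 0.05, open circles did not, and the black diamond is Fabp7, which was not tested. Fabp7 lies at -0.55, and the filled circles lie between -0.21 and 0.16.

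The transcripts whose course was most like that of Fabp7 were found by Pearson's correlation over the 56 mice on the log2(CPM + 1) scale, as a description of likeness. The closest was Lap3, a leucine aminopeptidase, with a correlation of 0.871 over the mice, 0.965 over the 14 group means and 0.585 within groups. Next came Emp2, an epithelial membrane protein (0.804 over the mice and 0.890 over the groups), S100a16, a calcium-binding protein (0.743 and 0.862), and Cldn10, a claudin (0.736 and 0.897). The other 6 were Tril, Mmp14, Aqp9, Slc16a1, Prss35 and Tspan9, with correlations of 0.640 to 0.665 over the mice and 0.711 to 0.853 over the groups. These transcripts share libraries, time points and regimens with Fabp7.
All 10 had a smaller fitted amplitude in DRF than in NRF, a direction that likeness to Fabp7 favours. Mmp14, a membrane metalloproteinase, had 0.24 against 0.62, and Lap3 had 0.08 against 0.14. The level differences of the 10, from -0.13 for Cldn10 to 0.00 for Aqp9, were smaller than that of Fabp7. Within groups, where hour and regimen are removed, the correlations of the 10 with Fabp7 were 0.143 to 0.585.

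**Figure D5:**
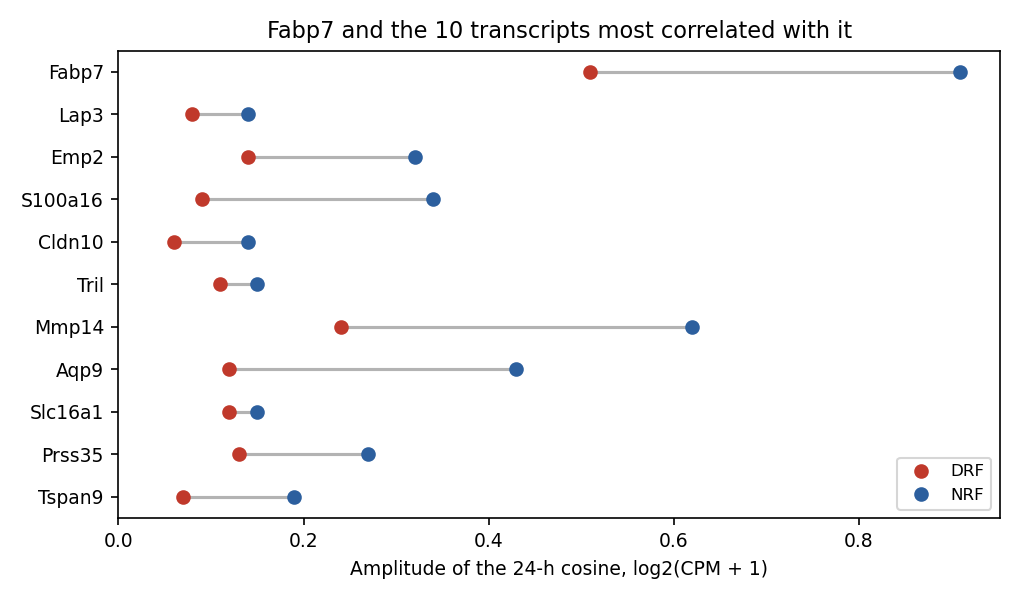
Amplitude of the 24-h cosine on the log2(CPM + 1) scale (x axis) in DRF (red) and NRF (blue) for Fabp7 and the 10 transcripts most correlated with it (rows). Grey lines join the regimens. Fabp7 has the largest amplitude of those shown in both regimens (0.51 and 0.91), followed by Mmp14 (0.24 and 0.62).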

How the data were processed

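RNA was sequenced from the anterior hypothalamus of 56 mice, and the members and gene lists were chosen with earlier results of these data known. The study's methods name HISAT2, Bowtie2 and RSEM (mouse GRCm38.p6) and TMM normalization. The authors deposited 1 score per gene and mouse, called TPM, for 17564 genes. These deposited scores are log2(CPM + 1) divided by gene length and rescaled to a sum of 999333 to 999720, so they are not proportional to reads. The steps were undone from genes with few reads (median relative deviation 1.94e-08), which gave whole reads for 15510 genes and log2(CPM + 1) for 17367.

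Genes were kept where 80% of mice or more had a deposited score of 1 or above (16245, of which 16081 had log2(CPM + 1)). Rhythm was tested on the deposited scores by JTK_CYCLE and Lomb-Scargle p-values (periods of 20 to 28 h) combined by Fisher's method. Level, time-point and rhythm (24-h cosine) differences were tested with limma 3.58.1 (eBayes with trend), adjusted by Benjamini-Hochberg over all transcripts at 0.05. The scripts were tested on simulated data. The labels do not give a litter, cage or batch, so p-values measure the spread between mice and treat the mice as independent. The paper states that the mice were group housed. An effect shared by the 4 mice of a group could not be told apart from hour or regimen. Alternatives were other scales, filters and tests, leaving out time points or replicates, a replicate block, and, chosen after seeing the data, leaving out DRF ZT16 replicates 3 and 4. Named genes were Fabp7, Fabp3, Fabp5, listed genes that passed a test of a difference, defining markers and the 10 transcripts most correlated with Fabp7. Genes named beyond that rule (Rbp7, Dbi, Hes1, Hes5 and listed genes that did not pass) were picked after their values were seen.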

Additional observations from a re-analysis of the deposited data

Results flagged for a closer look

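Fabp3 at DRF ZT8 had 1 mouse far below the others, at 4.5 on the log2(CPM + 1) scale against 4.63 to 4.65. It was the only one of 42 groups of 4 mice, over the 3 genes, in which a mouse stood so far apart, and chance alone gives about 1 such group in 20. The rhythm of Fabp3 differed between the regimens by the test of the cosine terms (limma, adjusted p = 0.0245).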

How the results depend on the processing

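The Fabp7 level difference lay between -0.64 and -0.50 and the amplitude difference between -0.44 and -0.32 over 11 alternative fits on a CPM scale, and on the compressed deposited scale they were -0.16 and -0.10. Transcripts called rhythmic in DRF numbered 110, against 61 by JTK_CYCLE alone, 0 by Lomb-Scargle alone (567 at an unadjusted p under 0.05), 55 without ZT24, 655 by the 24-h cosine in limma and 635 by that cosine with a replicate block. They were 32 to 42 with 1 replicate number left out. In NRF they numbered 4918, against 4 by Lomb-Scargle alone (3529 at an unadjusted p under 0.05) and 2404 to 3824 with 1 replicate number left out. Level differences numbered 1682, with 368 to 2292 with a replicate number left out, the lowest without replicate 3. Rhythm differences numbered 1800, with 1184 without ZT24 and 426 to 1576 with a replicate number left out, again lowest without replicate 3. Calls summed over the 7 time points numbered 5081, with 344 to 5552 with a replicate number left out. The Fabp3 difference at ZT16 (0.03) turned to -0.18 without DRF ZT16 replicates 3 and 4 and ran from -0.11 to 0.13 with a replicate number left out, and that of Fabp5 at ZT20 (0.01) ran from -0.06 to 0.09. The cause of these shifts was not tested.

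Replicate numbers did not pair the mice: the median correlation of deviations was 0.0148 for the same number and -0.0053 for other numbers, and 14 of 56 mice correlated best with their own number. With the replicate block, 1710 level and 1729 rhythm differences were called, and the Fabp3 and Fabp5 calls on level and rhythm difference were as without it. With 4 mice per group, the SE of a difference at 1 time point was 0.15 for Fabp7, 0.07 for Fabp3 and 0.08 for Fabp5 on the log2 scale, which sets the size of difference that could be seen.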
